A study of Mus musculus with 24 samples.

Results

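The genes described here encode the voltage-gated sodium channels, the voltage-gated calcium channels and the HCN channels, together with the sodium channel beta and the calcium channel alpha2delta and beta subunits. They were chosen by gene symbol. The symbol rule matched 36 genes, all of which were among the 36605 genes counted, and 32 of them were kept because they had 10 or more counts in at least 6 of the 24 mice. The 4 genes not kept were Cacna1s and Scn4a, which reached 10 counts in 2 mice each, Scn10a, which did so in 1 mouse, and Scn11a, which did so in 0. The kept gene nearest to the limit was the L-type gene Cacna1f, with 3 to 32 counts per mouse and 10 or more in 19 mice. All 32 kept genes passed the filter on low counts of every comparison below.

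Hippocampal polyA RNA was sequenced from 24 adult mice, 3 females and 3 males of each of 4 genotypes, and no treatment is named in the labels. Complete wild type mice (Egr1wtNesCre-) carried neither a floxed Egr1 allele nor Cre, Cre control mice (Egr1wtNesCre+) carried the Nestin-Cre transgene with wild type Egr1, Egr1cKO control mice (Egr1fNesCre-) carried floxed Egr1 without Cre, and Egr1cKO mice (Egr1fNesCre+) carried both. The floxed mice were Egr1_tm1a_A04, C57BL/6 N-Egr1/Tcp, and the driver was B6.Cg-Tg(Nes-cre)1Kln/J. Nestin is expressed in neural precursors throughout the nervous system, so that the deletion was not limited to the hippocampus. The Egr1wt and the Egr1f mice bear mouse numbers from 2 separate ranges, and a difference between Egr1f and Egr1wt mice cannot be told apart from one between those series of mice. The mice are labelled as separate samples of their group.

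Egr1, the deleted gene, was measured first. It lay between 4.90 and 10.2 CPM (counts scaled to library size) in the 6 Egr1cKO mice and between 47.6 and 149 CPM in the other 18, with no overlap. The log2FC was -3.57 ± 0.19 against Egr1cKO controls and -3.45 ± 0.21 against Cre controls, with adjusted p values of 3.28e-08 and 8.09e-07 in edgeR. The libraries held 18025168 to 34955004 counts, and no pair of mice in a group differed by as little as sampling noise. The labels give the cell type as endocrine. The summed pituitary markers had a median of 2.37 CPM and the summed hypothalamus markers 1.75 CPM over the 24 mice, against 10020 CPM for the neuron markers and 613 CPM for CA1 markers. The RNA was therefore described here by its labelled tissue, the hippocampus. In RNA from whole tissue, fewer cells of a type and less RNA per cell cannot be told apart.

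Voltage-gated channels set the electrical behaviour of neurons. Sodium channel alpha subunits form the pore that carries the rising phase of the action potential, and beta subunits modify their gating and placement. Calcium channel alpha1 subunits admit calcium during depolarization, to trigger transmitter release, dendritic signals and gene expression, while alpha2delta and beta subunits take part in their trafficking and gating. HCN channels open on hyperpolarization, carry the Ih current and dampen dendritic excitability in pyramidal neurons.

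Levels between genes were compared as CPM per kb of exon, which divides each count by library size and by the gene's exonic length. The genes named below spanned from 0.0820 CPM per kb for Cacna1f to 59.2 CPM per kb for Scn2b, as means over the 24 mice. Across mice most were steady. The coefficient of variation was lowest for Cacnb1 at 6.24%, Cacnb3 at 7.28% and Hcn2 at 7.34%. Among the genes of widest spread were Hcn4 at 55.1%, Scn7a at 49.6% and Cacna1f at 49.0%, all with mean levels below 0.5 CPM per kb. The plot of levels per kb shows 29 genes by family.

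**Figure D1:**
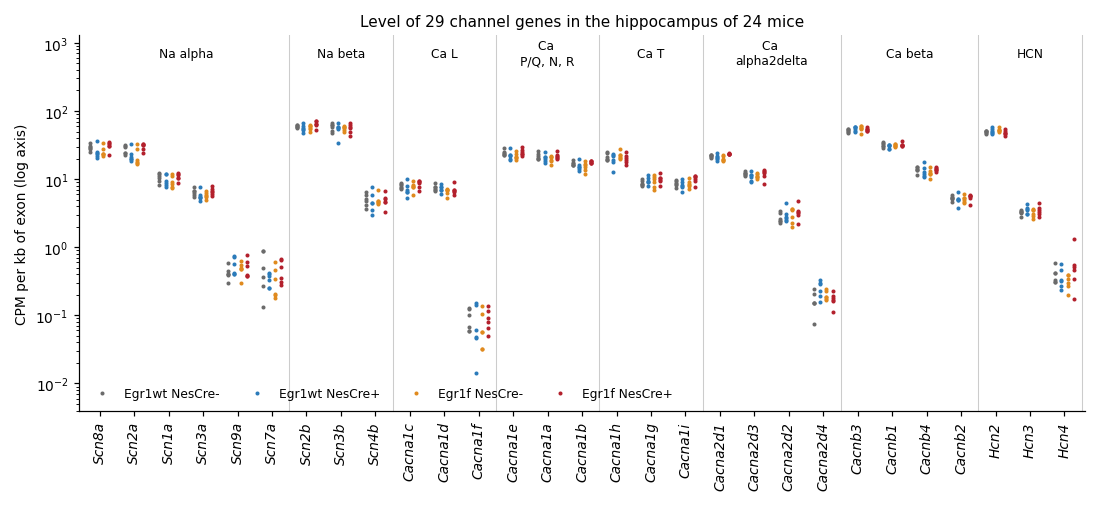
CPM per kb of exon (log axis) of 29 channel genes, with 1 point per mouse, coloured by genotype and ordered within each family by mean level. Scn8a and Scn2a stand highest of the sodium alpha subunits shown, at means of 27.7 and 25.3 CPM per kb, and Hcn2 of the HCN genes shown, at 50.3 CPM per kb. The genotypes overlap in almost every gene.

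Among the 7 sodium channel alpha subunits, Scn8a (NaV1.6) made up 39.4% of the summed level per kb and Scn2a (NaV1.2) 35.6%. Both are the main sodium channels of excitatory neurons, at the axon initial segment. Scn1a (NaV1.1), known for its role in inhibitory interneurons, held 14.4% and Scn3a (NaV1.3), the form most prominent before birth, 8.83%. Scn9a, a channel of peripheral neurons, was at 0.490 CPM per kb and Scn7a, an atypical sodium-sensing channel, at 0.410 CPM per kb. The genes Scn3a, Scn2a, Scn1a, Scn9a and Scn7a are neighbours on chromosome 2, in that order, from base 65457118 to base 66784914 (GRCm38). Of the beta subunits, Scn2b was at 59.2 CPM per kb, Scn3b at 55.8 and Scn4b at 4.93.

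Among the 9 calcium channel alpha1 subunits, Cacna1e (CaV2.3, R-type) held 20.3%, Cacna1a (CaV2.1, P/Q-type) 18.2%, Cacna1h (CaV3.2, T-type) 18.2% and Cacna1b (CaV2.2, N-type) 14.3% of the summed level per kb. The T-type genes Cacna1g (CaV3.1) and Cacna1i (CaV3.3) held 8.26% and 7.72%, and the L-type genes Cacna1c (CaV1.2) and Cacna1d (CaV1.3) 6.81% and 6.17%. Cacna1f, the L-type channel of photoreceptors, held 0.0716%. Cacna2d1 held 59.5% of the alpha2delta level and Cacna2d3 31.6%, with 8.29% for Cacna2d2 and 0.546% for Cacna2d4. Cacnb3 and Cacnb1 held 51.9% and 30.2% of the beta subunit level, Cacnb4 12.9% and Cacnb2 5.02%.

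Hcn2 held 84.2% of the summed HCN level per kb, at 50.3 CPM per kb, while Hcn3 was at 3.37 CPM per kb and Hcn4, the pacemaker channel of the heart, at 0.409. The share of Hcn2 ran from 81.0% to 89.4% over the mice. The libraries were not stranded, and the exons of Hcn3 and Cacnb4 overlap genes on the opposite strand over 17.1% and 16.0% of their exonic length. These partners, Pklr and A430018G15Rik, had a median of 1 count each.

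EGR1 is a zinc finger factor that binds GC-rich DNA, and its letters were looked for in the promoters because it is the deleted factor. Windows of 250 bases before to 50 after a RefSeq start (GRCm38.p6) were at hand for 22 of the 32 genes, 32 windows in all. GCGTGGGCG and GCGGGGGCG, on either strand, occurred in 3.93% of all 27025 genes with a window and in 6 of these 22 genes, or 27.3%. The 6 stretches are shown with the letters in capitals, since they are the only ones among these genes, each read on the strand of its gene with its first and last base:
Cacna1b (chr2:24763246-24763306, minus strand): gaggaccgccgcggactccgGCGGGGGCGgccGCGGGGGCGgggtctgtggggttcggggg
Cacna2d1 (chr5:15934650-15934690, plus strand): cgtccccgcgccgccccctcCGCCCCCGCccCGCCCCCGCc
Cacna2d2 (chr9:107399717-107399765, plus strand): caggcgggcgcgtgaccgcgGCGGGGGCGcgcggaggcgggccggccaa
Hcn2 (chr10:79716535-79716583, plus strand): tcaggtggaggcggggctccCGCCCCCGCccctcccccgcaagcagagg
Scn7a (chr2:66785007-66785055, minus strand): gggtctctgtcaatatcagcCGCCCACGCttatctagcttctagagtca
Scn8a (chr15:100870550-100870598, plus strand): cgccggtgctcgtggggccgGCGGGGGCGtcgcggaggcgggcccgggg

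Only the Scn7a match among the 6 has the letters GCGTGGGCG, and Cacna1b and Cacna2d1 each hold GCGGGGGCG in 2 places. These letters often lie beside or across the GC box GGGCGG, which 93.9% of all matching windows hold on either strand, against 35.7% of all windows. By the GENCODE gene bounds the Cacna2d2 and Scn8a stretches lie inside the gene and not before it. A match is a description of the letters and not a binding site.

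The comparisons ask whether loss of Egr1, the Nestin-Cre transgene or the floxed allele moved the channel genes. No channel gene was called in any of 9 comparisons with the edgeR quasi-likelihood test, at an adjusted p of at most 0.05 and, for differences between groups, a fold change (FC) of at least 1.2. Under the same rule few genes of any kind were called. For any difference among the 4 genotypes 0.0271% of 18433 genes passed. Egr1cKO against Egr1cKO control gave 0.0232%, Egr1cKO against Cre control 0.00585%, Cre control against wild type 0%, and Egr1cKO control against wild type 0%. The floxP by Nestin-Cre interaction gave 0.00543%, Egr1cKO against all other 18 mice 0.00543%, female against male 0.076%, and the sex difference of Egr1cKO mice against that of the others 0.00507%. DESeq2 called 0 channel genes in 8 of the 9 comparisons and 3 in the interaction, Cacna2d1 (adjusted p 0.0438), Cacna1b (0.0481) and Scn8a (0.0483). Over all genes DESeq2 called 335 in the interaction, where edgeR called 1. The comparisons share mice, so their results are not independent.

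Below that threshold the fitted differences of the channel genes leaned one way. Against Egr1cKO controls, 26 of the 32 log2FC values in Egr1cKO mice were positive, with a median of 0.15 against -0.0071 over all genes tested. With an unadjusted p under 0.05 there were 9 channel genes, or 28.1%, 8 of them with positive values, where all genes gave 16.2%. Most channel genes have more than 8000 exonic bases, and 26.3% of other genes of that length also had such a p. DESeq2 gave 11 channel genes in that comparison, against 9.53% of 34293 genes, a larger set than the 17265 tested in edgeR. Against Cre controls 25 of 32 were positive, and the median was 0.12 against -0.015 over all genes. There 7 channel genes had an unadjusted p under 0.05, against 12.3% of all genes and 20.5% of other genes over 8000 exonic bases. The plot of log2FC values shows both comparisons.

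**Figure D2:**
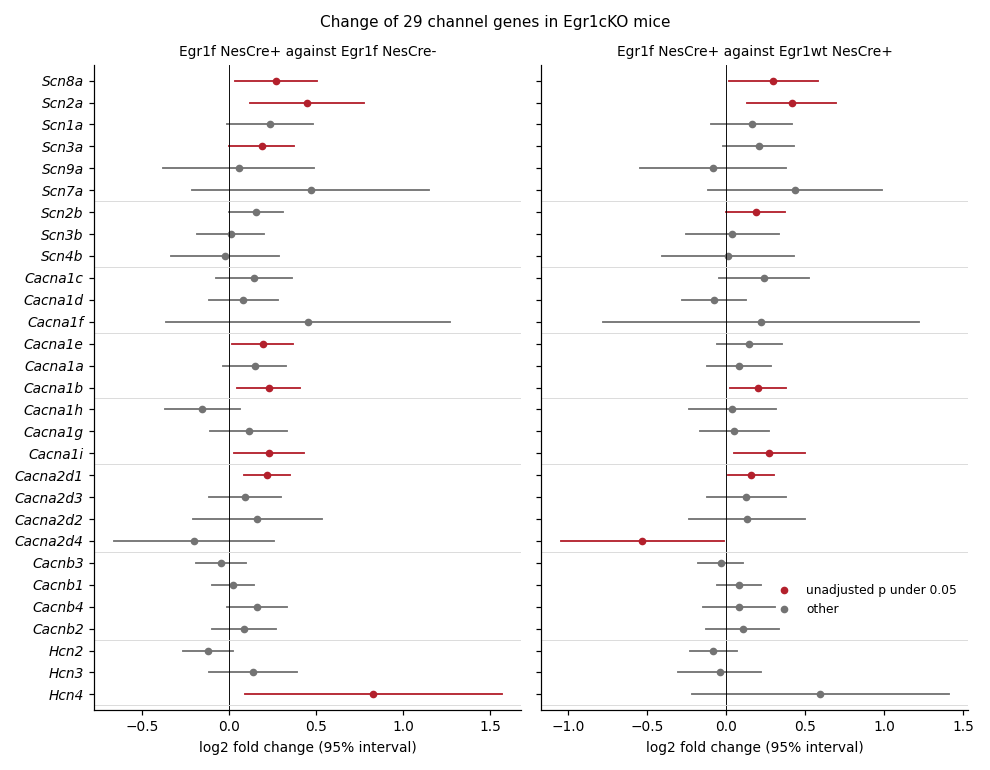
log2FC of 29 channel genes in Egr1cKO mice with 95% intervals, against Egr1cKO controls (left) and against Cre controls (right), 6 mice per group. Red marks an unadjusted p under 0.05, which 8 of the genes shown had on the left and 7 on the right. None passed the adjusted threshold, and most points lie to the right of 0.

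The opposite lean appeared in both comparisons that hold no Egr1cKO mouse. The control mice that were the reference above are set against wild type here, so the 2 leans are tied and not separate observations. In Cre control against wild type mice 23 of 32 log2FC values were negative, with a median of -0.078 against 0.013 over all genes, and 1 channel gene had an unadjusted p under 0.05 against 6.05% of all genes. In Egr1cKO control against wild type mice 23 of 32 were again negative, with a median of -0.049, and 3 channel genes had an unadjusted p under 0.05 against 9.68% of all genes. In the interaction 11 channel genes, 9 positive and 2 negative, had an unadjusted p under 0.05, where all genes gave 19.2%. The median of the channel genes was 0.24, against -0.023 over all genes. Other genes over 8000 exonic bases gave 33.7% in the interaction, with a median of 0.17. For any difference among genotypes the number was 5 channel genes against 11.2% of all genes, led by Cacna2d1 and Scn2a with adjusted p values of 0.423 and 0.430 in edgeR. Against all other 18 mice 8 channel genes had an unadjusted p under 0.05 in Egr1cKO mice, all with positive values, against 15.1% of all genes. Other genes over 8000 exonic bases gave 27.3% there. A p that misses the threshold does not show that levels were equal. The 95% interval lay within 1.5-fold either way for 26 of the 32 genes and within 2-fold for 28 in Egr1cKO against Egr1cKO control mice.

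Scn2a (chr2:65620771-65767447, plus strand, GRCm38) had the widest fitted difference from Egr1cKO controls of the genes above 10 CPM in every mouse. It ran from 214 to 415 CPM with a median of 234 in Egr1cKO controls, and from 303 to 417 CPM with a median of 402 in Egr1cKO mice. Cre controls ran from 234 to 419 CPM around 257, and wild type mice from 284 to 406 CPM around 345. The groups overlapped, but 4 of 6 Egr1cKO controls and 5 of 6 Cre controls lay below the lowest Egr1cKO mouse, while the remaining Cre control, male replicate 2, lay above the highest. The log2FC was 0.45 ± 0.15 (SE, n = 6 and 6) against Egr1cKO controls, with an adjusted p of 0.255 in edgeR, and 0.41 ± 0.13 against Cre controls, with an adjusted p of 0.354 in edgeR.

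In the interaction Scn2a had a log2FC of 0.73 ± 0.22 with an adjusted p of 0.150 in edgeR, the smallest among channel genes together with Cacna2d1 and Cacna1b. Single mice decided this gene. Without Egr1cKO control male replicate 1 it was called against Egr1cKO controls at a log2FC of 0.61 and an adjusted p of 0.0313 in edgeR. Without Cre control male replicate 2 it was called against Cre controls at 0.57 with an adjusted p of 0.0056 in edgeR. The same mouse left out gave a called difference between Cre control and wild type mice of the other sign, -0.43 with an adjusted p of 0.0360 in edgeR. Calls over all genes moved with these mice too, to 304 against Egr1cKO controls in place of 4, 794 against Cre controls in place of 1, and 229 between Cre control and wild type mice in place of 0. With all mice the value of Scn2a in the last of these was -0.28 ± 0.13, and Egr1cKO control against wild type gave -0.31 ± 0.15, both uncalled.

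Scn8a (chr15:100869858-101045938, plus strand) followed the same order. Its median was 506 CPM in Egr1cKO mice, 372 in Egr1cKO controls, 373 in Cre controls and 460 in wild type mice. The lowest and highest values were 360.1 and 548, 344 and 527, 319 and 574, and 393 and 536 CPM in that order, so every pair of genotypes overlapped. Its log2FC was 0.27 ± 0.11 against Egr1cKO controls and 0.30 ± 0.13 against Cre controls, with adjusted p values of 0.274 and 0.387 in edgeR, and 0.49 ± 0.17 in the interaction, with an adjusted p of 0.152. Without Cre control male replicate 2, which held the highest Scn8a of all mice, the difference against Cre controls was called at 0.44 with an adjusted p of 0.0248 in edgeR. Scn8a then also differed between Cre control and wild type mice, at -0.35 with an adjusted p of 0.0382. All 7 alpha subunits had positive values against Egr1cKO controls. Scn3a, at 0.19 ± 0.087 with an adjusted p of 0.307 in edgeR, was the third of them with an unadjusted p under 0.05.

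Of the sodium channel beta subunits, Scn2b, the beta2 subunit, had a log2FC of 0.15 ± 0.073 against Egr1cKO controls and 0.19 ± 0.088 against Cre controls, with adjusted p values of 0.319 and 0.405 in edgeR. Scn3b, the beta3 subunit, had 0.0081 ± 0.091 and 0.040 ± 0.14, and Scn4b, the beta4 subunit, -0.027 ± 0.15 and 0.012 ± 0.20, with no adjusted p under 0.9 for either of these in edgeR.

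Among the presynaptic and R-type calcium channels all 3 genes had positive values against both controls. Cacna1b ran from 170 to 186 CPM with a median of 177 in Egr1cKO mice, from 119 to 181 CPM around 155 in Egr1cKO controls, and from 133 to 197 CPM around 149 in Cre controls. Wild type mice lay between 159 and 190 CPM. Egr1cKO mice had the narrowest range, with 5 of 6 mice of each control group below it. The log2FC was 0.23 ± 0.084 against Egr1cKO controls, 0.20 ± 0.083 against Cre controls and 0.36 ± 0.12 in the interaction, with adjusted p values of 0.255, 0.377 and 0.150 in edgeR. Without Cre control male replicate 2 it was called against Cre controls, at 0.28 with an adjusted p of 0.0250.

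Cacna1e had medians of 615 CPM in Egr1cKO mice, 541 in Egr1cKO controls, 557 in Cre controls and 600 in wild type mice, with ranges that overlapped. Its log2FC was 0.19 ± 0.083 against Egr1cKO controls, with an adjusted p of 0.286 in edgeR. Its log2FC of -0.16 ± 0.074 for Egr1cKO control against wild type was among the 3 smallest p values of that comparison, with an adjusted p of 0.516 in edgeR. The L-type gene Cacna1d was another, at -0.18 ± 0.082 with an adjusted p of 0.515. Cacna1d ran from 66.2 to 89.4 CPM in Egr1cKO controls and from 83.0 to 110 CPM in wild type mice. Those ranges overlapped. The remaining genes of these classes, Cacna1a, Cacna1c and Cacna1f, had log2FC values between 0.14 and 0.45 against Egr1cKO controls with no unadjusted p under 0.05.

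Cacna1i, a T-type channel of slow kinetics, ran from 74.4 to 110 CPM with a median of 103 in Egr1cKO mice. It had 70.7 to 101 CPM around 82.1 in Egr1cKO controls, 63.1 to 100.4 CPM around 78.9 in Cre controls, and 73.7 to 96.8 CPM around 86.4 in wild type mice. The 3 female Egr1cKO mice lay above every mouse of the other genotypes. The share of all genes with such an order was not counted. Against all other 18 mice the log2FC was 0.24 ± 0.080 with an adjusted p of 0.215 in edgeR. It was called there without Egr1cKO male replicate 3, at 0.31 with an adjusted p of 0.0427, when 215 genes in all were called in place of 1, and against Cre controls without Cre control male replicate 2, at 0.38 with an adjusted p of 0.0228. With all mice the value against Cre controls was 0.27 ± 0.11, with an adjusted p of 0.358 in edgeR. Cacna1g and Cacna1h, the other T-type genes, had 0.11 ± 0.10 and -0.15 against Egr1cKO controls.

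Cacna2d1 (chr5:15934691-16374511, plus strand), the alpha2delta subunit that binds gabapentin, was the single channel gene whose values did not overlap between Egr1cKO mice and Egr1cKO controls. It ran from 286 to 296 CPM with a median of 293 in Egr1cKO mice and from 231 to 283 CPM around 239 in Egr1cKO controls. Non-overlap in that pair was seen in 0.463% of all genes tested. Wild type mice, at 254 to 285 CPM, lay just below the Egr1cKO mice. That pair was not compared here, and its share without overlap over all genes was not counted. In Cre controls, at 231 to 304 CPM, 1 mouse lay above the Egr1cKO mice. No channel gene was without overlap between Egr1cKO and Cre control mice (0.363% of all genes), between Cre control and wild type mice (0.256%), or between Egr1cKO control and wild type mice (0.305%).

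The log2FC of Cacna2d1 was 0.22 ± 0.063 against Egr1cKO controls, an FC of 1.16, with an adjusted p of 0.242 in edgeR. It was 0.16 ± 0.068 against Cre controls, 0.29 ± 0.089 in the interaction and 0.16 ± 0.052 against all other 18 mice, with adjusted p values of 0.381, 0.150 and 0.204. Cacna2d4, a form known from the retina, was at 1.07 to 2.17 CPM in Egr1cKO mice, 1.49 to 3.18 CPM in Cre controls and 0.712 to 2.33 CPM in wild type mice. Those groups overlapped. Its log2FC was 0.61 ± 0.27 for Cre control against wild type, with an adjusted p of 0.754 in edgeR, and -0.53 ± 0.24 for Egr1cKO against Cre control, with an adjusted p of 0.401. Cacna2d2 and Cacna2d3 had no unadjusted p under 0.05 in any comparison between 2 genotypes, and neither had any of the 4 calcium channel beta subunits.

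Of the HCN genes, Hcn2 had a log2FC of -0.12 ± 0.068 against Egr1cKO controls, with an adjusted p of 0.361 in edgeR, and lay between 139 and 188 CPM over all 24 mice. Hcn3 ran from 10.8 to 18.7 CPM and had 0.14 ± 0.12 in that comparison. Hcn4 had an unadjusted p under 0.05 there, at 0.83 ± 0.35 with an adjusted p of 0.275 in edgeR. It was picked out here after its values were seen, because a single mouse stood far above the others.

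That mouse was Egr1cKO male replicate 3. It had 8.15 CPM of Hcn4, where the other 5 Egr1cKO mice had 1.06 to 3.35 CPM and the Egr1cKO controls at most 2.41 CPM. The same library had the highest summed striatum markers, 149 CPM against at most 110 CPM elsewhere, though not every marker of that list was highest in it. It had the lowest summed dentate gyrus markers, 180.1 CPM against a median of 375 CPM, and the lowest CA3 markers, 166 CPM. Cre control female replicate 1 was close to it in both lists, at 192 and 167 CPM. That mouse had 93.9 CPM of striatum markers and 3.42 CPM of Hcn4. The part of these markers in the Hcn4 level was not tested.

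**Figure D3:**
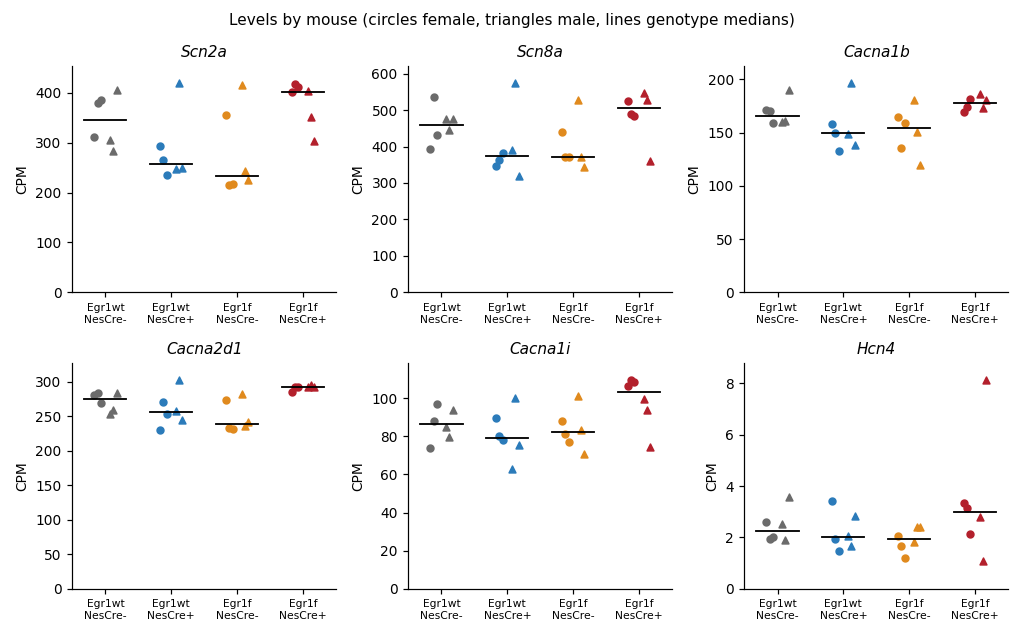
CPM by mouse of Scn2a, Scn8a, Cacna1b, Cacna2d1, Cacna1i and Hcn4, with circles for females, triangles for males and lines at the median of the 6 mice of a genotype. Egr1cKO mice have the highest median of each gene, 1 male Cre control (replicate 2) lies far above the other Cre controls for Scn2a and Scn8a, and 1 male Egr1cKO mouse (replicate 3) lies at 8.15 CPM for Hcn4, above all other mice.

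No sex difference was called in these genes. In female against male mice DESeq2 gave 1 channel gene with an unadjusted p under 0.05, against 3.81% of 36605 genes. In edgeR 1 channel gene also had such a p, where all genes gave 5.99%. It was Cacna1g, which ran from 85.8 to 118 CPM with a median of 100.3 in the 12 females and from 70.4 to 123 CPM around 87.2 in the 12 males. The log2FC was 0.16 ± 0.073 with an adjusted p of 0.809 in edgeR. Cacna1d, also among the 3 smallest p values, had -0.095 ± 0.065 with an adjusted p of 0.921 in edgeR. The intervals of 29 of the 32 genes lay within 1.5-fold, and of all 32 within 2-fold.

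For the sex difference of Egr1cKO mice against that of the others 1 channel gene had an unadjusted p under 0.05, against 6.09% of all genes. Cacna1i had 0.29 ± 0.17, with 106 to 110 CPM in female and 74.4 to 99.7 CPM in male Egr1cKO mice. Cacnb1 had 0.16 ± 0.094, with 144 to 162 CPM in females and 137 to 144 CPM in males. The adjusted p values were 0.875 and 0.880 in edgeR. Female and male Egr1cKO mice, 3 of each sex, did not overlap for 4 of the 32 channel genes (Cacna1d, Scn2b, Cacnb1 and Cacna1i), where 13.9% of all genes tested did not overlap either.

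Most channel genes have long transcripts, and their levels moved with those of long transcripts at large. Of the 32 genes, 21 have more than 8000 exonic bases. Among genes that are not channels, the median log2FC of Egr1cKO against Egr1cKO control mice was -0.12 for 3204 genes of up to 2000 exonic bases, -0.059 for 5304 genes of 2000 to 4000, 0.020 for 6004 genes of 4000 to 8000, and 0.11 for 2706 genes of more than 8000. The 21 long channel genes had a median of 0.19, with 19 positive. The same order by length appeared against Cre controls, and the reverse order in the 2 comparisons without Egr1cKO mice.

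A length index was computed for each mouse, as the median log2 deviation of genes over 8000 exonic bases minus that of genes up to 2000, without the channel genes. Its median was 0.16 in Egr1cKO mice (lowest -0.13, highest 0.24), -0.16 in Egr1cKO controls (-0.24 to 0.12), -0.12 in Cre controls (-0.24 to 0.22) and 0.045 in wild type mice (-0.054 to 0.15). Within its genotype the index was highest in Cre control male replicate 2 and Egr1cKO control male replicate 1, and lowest in Egr1cKO male replicate 3, the 3 mice whose removal changed calls. The summed neuron markers overlapped between all genotypes, at 9316 to 11509 CPM in Egr1cKO mice and 9321 to 11068 CPM in Egr1cKO controls. Summed microglia markers were at 201 to 235 CPM in Egr1cKO mice and at 144 to 213 CPM in the other genotypes. Summed oligodendrocyte markers were at 3080 to 4414 CPM against 3765 to 5770 CPM. Summed astrocyte markers were at 1378 to 1821 CPM against 1140 to 1652 CPM, and endothelium markers at 153 to 202 CPM against 86.8 to 195 CPM. All these ranges overlapped. The part of these cell types in the levels of the channel genes was not tested. The relation of the index to those levels is described below.

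The level of each of the 32 genes was correlated with the index over the 24 mice, with p values from 100000 permutations and adjustment over the 32 relations. At an adjusted p of at most 0.05 there were 18 genes, 16 with positive and 2 with negative r, and Spearman's rho also gave 18. The smallest r among these 18, regardless of sign, was 0.46, and 35.6% of 18381 genes that are not channels had an r at least as far from 0. Of 2718 such genes over 8000 exonic bases, which define the upper side of the index, 56.9% did, with a median r of 0.50, against 14 of the 21 long channel genes. The count is therefore given as no trait of the channel genes. For Scn2a Pearson's r was 0.96 and rho 0.94, each with a permutation p of 1e-05, the smallest the permutations can give, and adjusted values of 4.57e-05 and 3.56e-05. Without the 2 mice farthest from the median index r was 0.95. It was 0.97 within the 12 Egr1wt mice and 0.95 within the 12 Egr1f mice, and ran from 0.92 to 1.00 within single genotypes of 6 mice. The index and the levels come from the same libraries on 1 scale, so this describes shared variation and no cause.

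Other long genes with high r were Cacna1i at 0.88, Scn1a at 0.88, Scn8a at 0.87, Cacna1b at 0.82 and Cacna1c at 0.80. Cacna2d1 had 0.79 over all mice, but 0.080 within Egr1cKO mice. Cacnb3, with 4010 exonic bases, had a negative relation at -0.72. Not every long gene followed the index. Cacna1h had -0.041, Scn9a -0.066 and Cacna1g -0.14, and the relation of Cacna1d was 0.26 with an adjusted permutation p of 0.329.

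**Figure D4:**
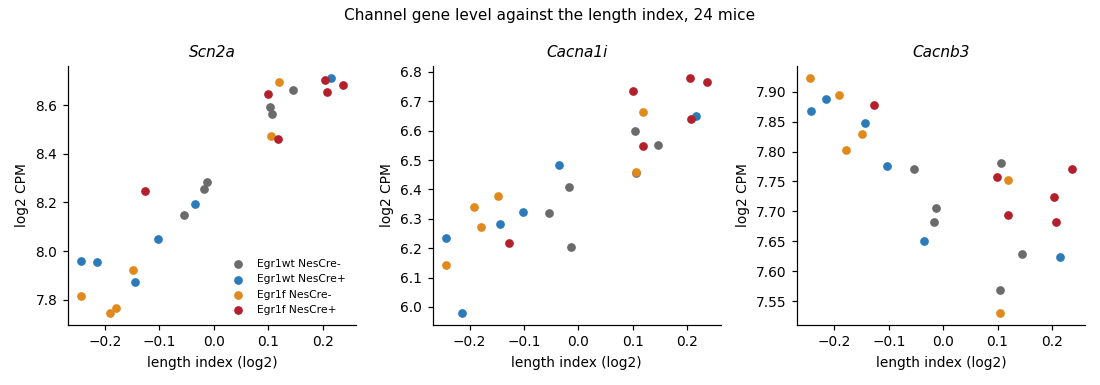
log2 CPM of Scn2a, Cacna1i and Cacnb3 against the length index of each mouse, with 1 point per mouse coloured by genotype (n = 24). Scn2a and Cacna1i rise with the index (r of 0.96 and 0.88), and Cacnb3 falls (r of -0.72), in all 4 genotypes.

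With the index as a covariate, an alternative chosen after seeing the data, the log2FC of Scn2a was 0.057 ± 0.079 against Egr1cKO controls and 0.099 ± 0.073 against Cre controls. That of Cacna2d1 against Egr1cKO controls was 0.12 ± 0.056 and that of Cacna1b 0.091 ± 0.082. The channel genes with an unadjusted p under 0.05 then numbered 3 against Egr1cKO controls, 3 against Cre controls and 2 in the interaction, in place of 9, 7 and 11. Over all genes the numbers fell as well, to 5.48%, 5.54% and 3.41% of the genes tested, from 16.2%, 12.3% and 19.2%. Index and genotype moved together, and their parts in these values cannot be told apart.

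Genes of channel partners were given beside the channels, from 31 genes that encode the TARP and gamma subunits, the NALCN complex, intracellular FGFs, ankyrins and spectrin, the HCN partner Pex5l, RGK proteins and presynaptic scaffolds. None was called in any of the 9 comparisons with edgeR. Against Egr1cKO controls 9 of 29 tested had an unadjusted p under 0.05, 8 with positive and 1 with a negative log2FC. All genes gave 16.2%, and genes over 8000 exonic bases that are not channels gave 26.3%. The partner genes were not split by length. Their median log2FC was 0.11 against -0.0071 over all genes. Ank2, a membrane scaffold, had 0.30 ± 0.11 against Egr1cKO controls and 0.33 ± 0.10 against Cre controls, with adjusted p values of 0.255 and 0.354. Unc80 of the NALCN leak channel complex had 0.27 ± 0.091 and 0.24 ± 0.092, and Rims1, which tethers calcium channels at the active zone, 0.23 ± 0.080 and 0.29 ± 0.093.

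Stac2, an adaptor of L-type channels, had -0.34 ± 0.073 against Egr1cKO controls, with an adjusted p of 0.242 in edgeR, and -0.20 ± 0.11 against Cre controls. Gem, an RGK protein that inhibits calcium channels, had -0.78 ± 0.29 for Cre control against wild type, with an adjusted p of 0.754. Pex5l had -0.24 ± 0.087 for Egr1cKO control against wild type, with an adjusted p of 0.515. The smallest p values for sex were those of Fgf11 at 0.13 ± 0.059 and Stac2 at 0.15 ± 0.073. For the sex difference of Egr1cKO mice against that of the others they were those of Stac3 at -1.26 ± 0.49 and Fam155a at 0.23 ± 0.097, with adjusted p values of 0.741 and 0.773 in edgeR.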

How the data were processed

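Polyadenylated RNA of the hippocampus was measured in 24 mice, with genotype, sex and replicate number taken from the labels. The authors had non-stranded libraries sequenced in paired-end mode, trimmed reads, mapped them to the mm10 genome (GRCm38) and counted them per gene with STAR, and deposited raw counts as whole numbers. The submitters' processing notes name Trim Galore 3.8.2 and STAR 2.7.9. The annotation used for counting is not given in the sources used here. All 24 columns were used.

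Levels are CPM with TMM factors. Symbols and exonic lengths (merged exons) came from GENCODE M21 on GRCm38. Differences were tested on the counts with edgeR 4.0.16 in R 4.3.3 (filterByExpr at a minimum count of 10, TMM, quasi-likelihood F test, Benjamini-Hochberg adjustment over all genes tested). Sex was a term, except against the other 18 mice. Standard errors were derived from the log2FC and its F statistic. Pairs of genotypes used only their own mice. The interaction is the Cre effect in floxed minus that in wild type mice. Each test was run on simulated counts in which genes were changed in Egr1cKO mice only. The tests of sex, and of either control against wild type, had no planted change to recover. DESeq2 1.42.0 and other settings were alternatives. Full statistics are given for channel genes called and for the 3 with the smallest p in each comparison, and partner genes for the 2 smallest. Others were named after their values were seen. Of the 32 channel genes 3, and 1 marker gene, are not reported here, though counts, medians and summed levels include them. The members and lists were chosen with earlier results of these data known. The p values of edgeR and DESeq2 set a difference against the spread between these mice. The permutation p value of a correlation is two-sided.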

Additional observations from a re-analysis of the deposited data

Results flagged for a closer look

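For 29 channel genes and Egr1, the 6 mice of a genotype were searched for 1 mouse far from the others, by Dixon's ratio at a critical value of 0.625. This marked 12 of 120 groups, where chance marks about 1 in 20. They are given as values, and their causes were not tested.

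In Egr1cKO male replicate 3, Hcn4 was highest of the Egr1cKO mice at 8.15 CPM (next 3.35), and Scn8a at 360.1 CPM (next 482) and Cacnb2 at 55.8 CPM (next 70.8) were lowest. Egr1cKO female replicate 1 had the highest Cacnb1, 162 CPM (next 144), and the lowest Cacna2d1, 286 CPM, within a group whose whole range ended at 296 CPM. Egr1cKO male replicate 2 had the highest Cacna1d, 113 CPM (next 88.6).

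In Cre control male replicate 2, Scn2a was highest at 419 CPM (next 293) and Scn8a at 574 CPM (next 389). Cre control female replicate 1 had the highest Cacna2d2, 36.0 CPM (next 24.4). Among Egr1cKO controls, female replicate 3 had the highest Cacna1h, 267 CPM (next 220.4), and male replicate 3 the highest Hcn2, 188 CPM (next 169.5), and the highest Scn4b, 34.1 CPM (next 23.8).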

How the results depend on the processing

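The count of channel genes called, 0 in every comparison, changed in 7 of the 58 combinations of a comparison with an alternative setting. Without a filter on low counts it was 4 for any difference among genotypes (Cacna1i, Scn2a and Scn8a among them), 4 for Egr1cKO against Egr1cKO control (Hcn4, Scn2a and Scn8a among them), 3 against Cre control (Scn2a and Scn8a among them), 1 for Egr1cKO control against wild type (Scn2a, lower), 5 in the interaction (Cacna1b, Scn1a, Scn2a, Scn3a, Scn8a) and 1 in the sex difference of Egr1cKO mice. DESeq2 gave 3 in the interaction, with 335 of all genes. All genes called without the filter numbered 1091 (2.98%) for any difference among genotypes, 808 (2.36%) against Egr1cKO controls and 529 (1.55%) against Cre controls. They numbered 163 (0.475%) for Egr1cKO control against wild type, 1173 (3.2%) in the interaction and 146 (0.399%) in the sex difference of Egr1cKO mice. With the filter they numbered 5, 4, 1, 0, 1 and 1 in that order. With 1 mouse left out the counts ran from 0 to 1 against Egr1cKO controls and from 0 to 4 against Cre controls. They ran from 0 to 2 for Cre control against wild type and from 0 to 7 in the interaction. Against the other 18 mice they ran from 0 to 1, and elsewhere they stayed at 0. Only the 6 Egr1cKO mice were left out in turn against the other 18 mice and for the sex difference of Egr1cKO mice. The mice that decided were Cre control male replicate 2 (4, 2 and 7 calls), Egr1cKO control male replicate 1 (1 call, Scn2a, in each of 2 comparisons) and Egr1cKO male replicate 3 (1 call, Cacna1i). All genes called rose with them, to 794, 229 and 1526, to 304 and 325, and to 215. The cause was not tested. The values of the named genes with the smallest p kept their direction in every fit run, and 7 of 145 became called under other settings and 11 of 324 with 1 mouse left out. The level of Cacna2d1 in Egr1cKO mice was 287 CPM on library totals, and the other 115 levels moved by less than 1 SD. Same-numbered mice of a sex had a mean r of deviations from -0.057 to 0.079 per number, with 6 of 24 mice best correlated with their own number. For male 3, r was over 0.1 in 4 of 6 pairs (-0.15 to 0.26). No number had every pair over 0.1, and the numbers were not taken to pair mice. With a replicate block 0 channel genes were called in the 5 comparisons where it was fitted, and 14 had an unadjusted p under 0.05 against Egr1cKO controls, with 17.7% of all genes. Genes at a few counts, such as Cacna1f, were measured with wide intervals.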
